A study of Danio rerio with 2 samples.

Results

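Fibrillar collagen chains and proteins that travel with them were followed through single cells sorted for a macrophage reporter. The genes were taken by name: every row of the plate tables called col1a1a, COL1A1, COL1A2, COL5A1, SERPINH1, serpinh1b or SPARC in the Ensembl zebrafish names, ignoring case. This gave 7 rows of 22342 genes, all of them on both plates. The name SERPINH1 stands for 2 gene identifiers, ENSDARG00000019949 and ENSDARG00000075954, which were kept apart, and no row is named serpinh1b. The genes had been chosen because their levels differed between the sort gates of these same plates. Gate differences of these genes are therefore given as a description, without a p-value.

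Type I collagen is a triple helix of alpha 1 and alpha 2 chains, and it is the main fibril of bone, tendon, dermis and fin. Zebrafish carry paralogous genes for the alpha 1 chain, of which col1a1a (ENSDARG00000012405) is one. The row named COL1A1 (ENSDARG00000035809) is a further type I alpha 1 gene, COL1A2 (ENSDARG00000020007) encodes the alpha 2 chain, and COL5A1 (ENSDARG00000012593) encodes a chain of type V collagen, which co-assembles with type I fibrils. SERPINH1, also called HSP47, is the chaperone of the endoplasmic reticulum that binds newly made procollagen. SPARC (ENSDARG00000019353) is a secreted collagen-binding glycoprotein. In vertebrates these genes are typical of fibroblasts, osteoblasts and other mesenchyme, while fish skin and fin-fold cells also make fibrillar collagen.

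The cells came from the amputated tails of embryos aged 3 days post-fertilization (dpf) with the transgenes mpeg1:EGFP, a macrophage reporter, and runx1+23:mCherry, a reporter of hematopoietic stem and progenitor cells (HSPCs). Live EGFP+mCherry+ cells, taken to be macrophages with HSPC material, were sorted into wells 1 to 192 of each of 2 plates, and EGFP+mCherry- cells into wells 193 to 384, so that each gate filled its own side of a plate. The embryos of both gates carried both transgenes. The plates are labelled as separate samples, but separate clutches or sorts are not stated, so that differences between them may be technical.

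Transcripts were counted by SORT-seq as unique molecular identifiers (UMIs), each standing for 1 captured molecule. Wells with 500 UMIs or more and 200 genes or more were kept. On plate 1 this left 143 mCherry+ and 151 mCherry- wells, and on plate 2 123 mCherry+ and 117 mCherry- wells, with medians between 7934 and 10839 UMIs. The plates share all 384 well barcodes by design. Not all kept wells looked like macrophages. A macrophage gene list held at least 0.5% of the UMIs (macrophage-rich) on plate 1 in 31 of the 143 mCherry+ wells and 58 of the 151 mCherry- wells. On plate 2 it did so in 89 of the 123 mCherry+ wells and 55 of the 117 mCherry- wells. A neutrophil list held at least 2% (neutrophil-rich) in 23 mCherry+ and 63 mCherry- wells of plate 1 and in 3 mCherry+ and 41 mCherry- wells of plate 2. A muscle list held over 10% (muscle-rich) in 3 and 5 mCherry+ wells of plates 1 and 2, and in 0 and 1 mCherry- wells.

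The 7 genes were concentrated in few wells. They summed to 5722 UMIs in the kept wells of plate 1 and 3403 in those of plate 2. Wells with at least 10 UMIs of the 7 genes numbered 43 of 534, and they held 94.3% of these UMIs on plate 1 and 94.2% on plate 2. As a group these wells were also deep, so their share of all UMIs was above their share of wells. The limit of 10 was set after the data had been seen, and the wells nearest to it held 11 and 9.01 UMIs on plate 1 and 10.01 and 9 on plate 2. None of the 43 wells had the same position on both plates.

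These 43 wells are called matrix-rich below for their count of the 7 genes, which is neither a share of the well nor a count of collagen chains alone. In 5 of them the 4 chain genes summed to fewer than 10 UMIs, and SPARC or SERPINH1 made up most of the count. In 7 muscle-rich wells, all mCherry+, the 7 genes were 0.00933% to 0.0745% of 76221 to 214558 UMIs. In the other 36 wells they were 0.0702% to 9.03%, and in wells with 1 or 2 of these UMIs the median was 0.0163% on plate 1 and 0.0120% on plate 2.

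By gate, 34 of the 43 wells were mCherry+ and 9 mCherry-. Plate 1 had 20 among 143 mCherry+ wells (14%, 95% exact binomial interval 8.8 to 20.8%), against 3 among 151 mCherry- wells (2.0%, 0.4 to 5.7%). Plate 2 had 14 among 123 mCherry+ wells (11.4%, 6.4 to 18.4%), against 6 among 117 mCherry- wells (5.1%, 1.9 to 10.8%). The limit of 10 takes no account of depth, and 3 of these 20 and 4 of these 14 mCherry+ wells were muscle-rich. Intervals here cover counting error only, since wells of 1 plate are not independent samples, and as the genes were picked for a difference between these gates they serve as no test of it.

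Matrix-rich mCherry+ wells reached far higher counts than matrix-rich mCherry- wells. On plate 1 the 20 mCherry+ wells held 11 to 1209 UMIs of the 7 genes with a median of 91.7, whereas the 3 mCherry- wells held 188, 27.0 and 19.0. On plate 2 the 14 mCherry+ wells held 13 to 1678 with a median of 47.6, whereas the 6 mCherry- wells held 10.0 to 48.0 with a median of 35.0. The ranges overlapped on both plates. The richest well of all, well 152 of plate 2, alone held 53.4% of the mCherry+ UMIs of these genes on its plate.

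**Figure D1:**
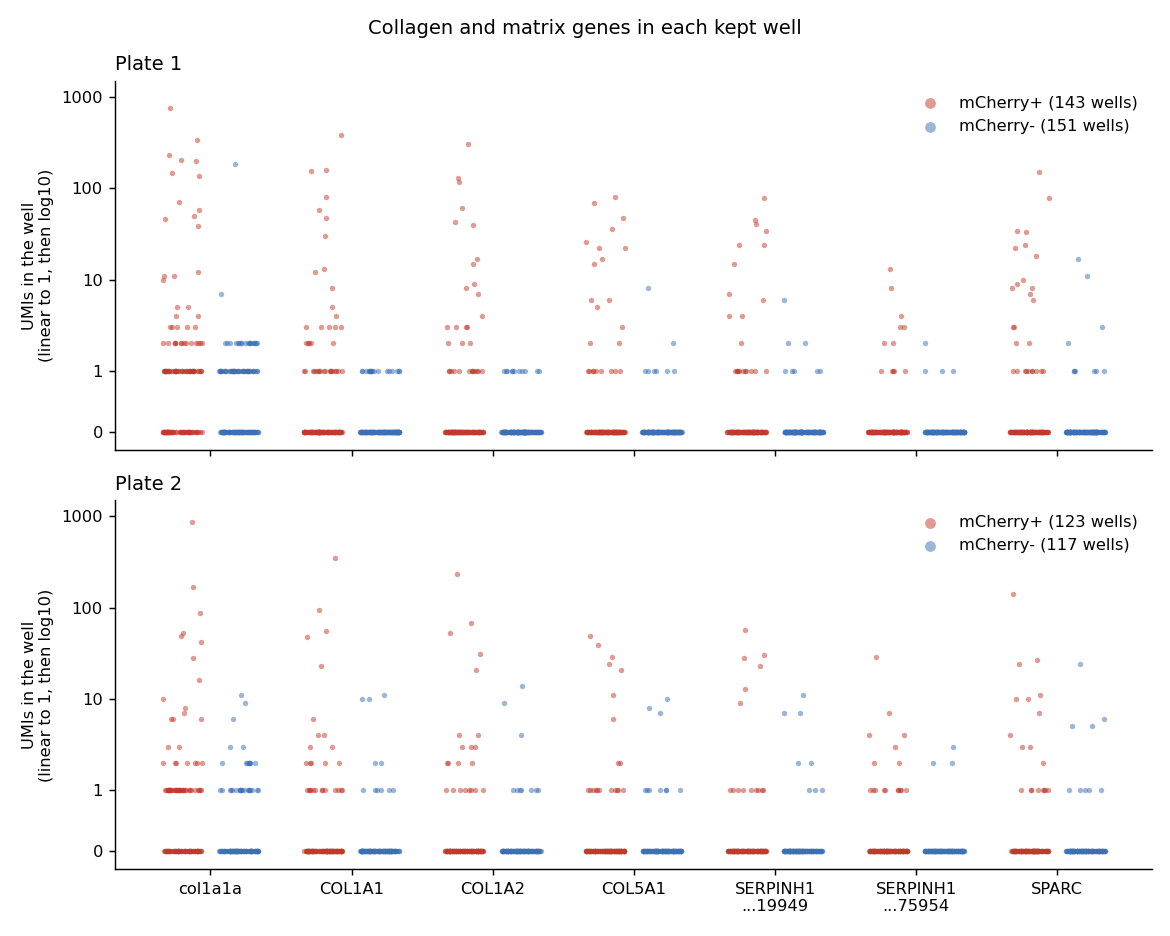
UMIs of each of the 7 genes in every kept well (vertical axis, linear to 1 and then log10), for plate 1 above and plate 2 below, with mCherry+ wells in red to the left and mCherry- wells in blue to the right; each point is 1 well, and the SERPINH1 rows are marked by the last digits of their identifiers. Most wells sit at 0 or 1, and the points above 100 belong to mCherry+ wells except for col1a1a in 1 mCherry- well of plate 1.

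Among the collagen chains, col1a1a was the most abundant gene and the most widely detected. Its summed UMIs came to 1297 CPM (counts scaled to the UMI total of the sum) in the mCherry+ wells of plate 1, against 198 CPM in the mCherry- wells. On plate 2 they came to 727 CPM in mCherry+ wells, against 68.1 in mCherry- wells. On plate 1, 83 of the 143 mCherry+ wells (58.0%) and 64 of the 151 mCherry- wells (42.4%) had at least 1 col1a1a UMI, and on plate 2, 59 of the 123 mCherry+ wells (48.0%) and 32 of the 117 mCherry- wells (27.4%) had one. Of the 64 mCherry- wells of plate 1, 43 held exactly 1 UMI, and a single well supplied 67.8% of the gate's col1a1a.

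The other type I chains were rarer, and on plate 1 more sharply divided. On plate 2 the order was reversed, with a log2 fold of 3.56 for col1a1a, 3.04 for COL1A1 and 2.81 for COL1A2. COL1A1 summed to 531 CPM in mCherry+ wells, against 13.1 in mCherry- wells, on plate 1, and to 313 CPM against 41.7 on plate 2. No mCherry- well of plate 1 held more than 1 COL1A1 UMI, while 17 of 143 mCherry+ wells held at least 3. COL1A2 behaved alike, at 420 CPM in mCherry+ and 8.0 in mCherry- wells of plate 1 and at 223 and 34.6 CPM on plate 2. The 5 richest mCherry+ wells held 83.3% of the gate's COL1A2 on plate 1 and 92.4% on plate 2.

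COL5A1, the type V chain, summed to 196 CPM in mCherry+ wells, against 11.6 in mCherry- wells, on plate 1 and to 99.7 against 32.6 CPM on plate 2. On plate 1, 24 mCherry+ wells and 8 mCherry- wells had a COL5A1 UMI, and on plate 2, 20 mCherry+ wells and 10 mCherry- wells did. The gates lay closer together on plate 2 than on plate 1, and that difference between plates was not tested.

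The chaperone and the glycoprotein showed the same order of the gates. SERPINH1 (ENSDARG00000019949) summed to 158 CPM in mCherry+ and 10.9 in mCherry- wells of plate 1, and to 86.4 and 32.6 CPM on plate 2. SERPINH1 (ENSDARG00000075954) was the scarcest of the 7 rows, at 21.4 CPM in mCherry+ and 3.6 in mCherry- wells of plate 1, and 31.3 and 7.1 CPM on plate 2. Either SERPINH1 row may share reads with its paralog, so their split is uncertain.

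SPARC summed to 228 CPM in mCherry+ wells, against 28.4 in mCherry- wells, on plate 1 and to 129 against 45.8 on plate 2. The mCherry- wells 197 and 315 of plate 1 held 17.0 and 11 SPARC UMIs. Well 253 of plate 2, also mCherry-, held 24.1 SPARC UMIs. In these 3 wells the muscle list made up 2.37%, 6.08% and 8.65% of the UMIs, and COL1A2 was at 0 in each.

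Summing UMIs by gate and plate gave 4 sums, which were fitted with edgeR with the plate as a block. Folds are mCherry+ over mCherry-. COL1A2 had a log2 fold of 4.04 (SE 0.63), COL1A1 4.03 (SE 0.54) and col1a1a 3.00 (SE 0.38). COL5A1 followed at 2.75 (SE 0.55), the SERPINH1 rows ENSDARG00000019949 and ENSDARG00000075954 at 2.53 (SE 0.55) and 2.28 (SE 0.50), and SPARC at 2.21 (SE 0.44).

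All 7 genes were among those called at an adjusted p of 0.05, and the background was 4.75% of the 9904 genes tested, or 2.42% called higher in mCherry+. As the genes were picked from this contrast, nothing follows from that count. In fold terms each gene was higher in mCherry+ on each plate, with log2 folds of 1.97 to 5.26 on plate 1 and 1.54 to 3.56 on plate 2. COL1A2 had the widest gap between plates, at 5.26 and 2.81. In a sum of cells, more cells of a type and more RNA per cell cannot be told apart.

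The 43 matrix-rich wells were also left out, an alternative chosen after the data had been seen. As those wells were picked by their UMIs of the same 7 genes and held most of them, smaller folds were bound to follow, and the values are a description. Only col1a1a, COL1A1 and COL1A2 kept enough UMIs to be tested, at log2 folds of 0.25 (SE 0.43), 0.70 (SE 0.51) and 0.48 (SE 0.64). On the single plates col1a1a was then at -0.02 on plate 1 and 0.53 on plate 2. Leaving out the single richest well of each sum kept all 7 folds positive, the smallest being 1.48 (SE 0.50) for SPARC, and called 5 of 7, with 300 of 9827 genes called in all. SPARC and SERPINH1 ENSDARG00000019949 were not called.

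Muscle-rich wells held 16.4% and 33.7% of all mCherry+ UMIs on plates 1 and 2, against 0% and 0.213% of mCherry- UMIs. They held little of the 7 genes, 1.28% of their UMIs on plate 1 and 6.86% on plate 2. Without these wells the log2 folds were 2.32 to 4.25 and col1a1a and COL1A1 remained called, 2 of 7, where 0.79% of 9489 genes tested were called. Also without muscle-rich wells, a minimum of 2000 UMIs per well called 0 of 7, with 25 of 9336 genes called in all. In the same set, leaving out the richest wells called 0 of 7, with 33 of 9283 genes. Both kept all 7 folds above 0. DESeq2 on that set called 6, with 216 of 9489 genes, and no minimum for wells called 7, with 233 of 9560.

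**Figure D2:**
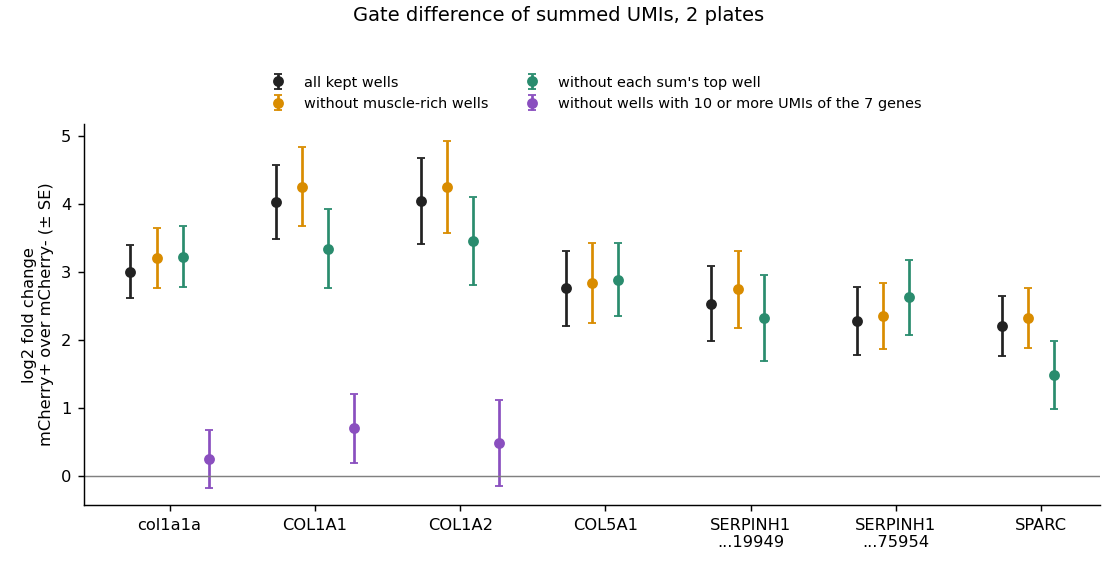
Log2 fold change of each of the 7 genes, mCherry+ over mCherry-, from the summed UMIs of 2 plates (vertical axis, bars are ± SE), for all kept wells, without muscle-rich wells, without the richest well of each sum, and without the 43 wells with at least 10 UMIs of the 7 genes. The SE was calculated back from the fold and its edgeR F statistic. The folds lie between 1.48 and 4.25 in the first 3 settings; in the last, which removes the wells picked for these genes, only 3 genes could be tested and they lie between 0.25 and 0.70.

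Whether matrix-rich wells also held macrophage genes depended on the plate. On plate 1, 3 of the 23 matrix-rich wells were macrophage-rich (13%, exact interval 2.78 to 33.6%). On plate 2, 12 of 20 were (60%, 36.1 to 80.9%). Among wells with no UMI of the 7 genes, 31 of 103 (30.1%, 21.5 to 39.9%) were macrophage-rich on plate 1 and 63 of 113 (55.8%, 46.1 to 65.1%) on plate 2. The intervals of matrix-rich wells and of wells without these genes overlapped on each plate. These counts pool the gates. Among mCherry+ wells alone, 3 of 20 matrix-rich wells (15%) and 8 of 40 wells without these genes (20%) were macrophage-rich on plate 1. On plate 2 these were 8 of 14 (57.1%) and 29 of 42 (69.0%). Among mCherry- wells they were 0 of 3 and 23 of 63 (36.5%) on plate 1, and 4 of 6 (66.7%) and 34 of 71 (47.9%) on plate 2. Matrix-rich wells were also the deeper ones, with medians of 22070 UMIs, against 7355 in wells without these genes, on plate 1 and 14759, against 7689, on plate 2.

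In the 20 matrix-rich wells of plate 1 that were not macrophage-rich, 1 to 9 of the 26 macrophage genes were detected, and the list held 0.0115% to 0.154% of the UMIs. MPEG1, whose promoter drives EGFP and whose name covers 3 identifiers summed here, was at 0 in 15 of the 20 wells, and the scavenger receptor marco was likewise at 0 in 15. The macrophage marker mfap4 was seen in 17 of the 20, at a median of 1.5 UMIs, and the leukocyte gene lcp1 was at 0 in 3. In macrophage-rich wells with fewer than 10 UMIs of the 7 genes, MPEG1 was at 0 in 7 of 86 and marco in 9 of 86, and mfap4 was seen in all 86 at a median of 68.9 UMIs. In neutrophil-rich wells below that limit, MPEG1 was at 0 in 74 of 81 and marco in 70 of 81, and mfap4 was seen in 44. Macrophage-rich wells were set apart by a list that holds MPEG1, marco and mfap4, so a difference in these genes was bound to follow.

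In the 3 macrophage-rich wells among the matrix-rich ones of plate 1, MPEG1, mfap4 and lcp1 were seen in all 3 and marco in 2. The 12 such wells of plate 2 held 11 to 18 of the 26 macrophage genes, and MPEG1, marco, mfap4 and lcp1 were detected in all 12. Their median MPEG1 count was 9.51 UMIs, against 8.0 in the macrophage-rich wells of that plate with fewer than 10 UMIs of the 7 genes. Macrophage transcripts thus shared these wells with those of the 7 genes. In 3 of them, wells 130, 195 and 290, the 4 chain genes summed to fewer than 10 UMIs. Whether the 12 wells held 1 cell or more was not tested, and no doublet caller was run. The other 8 matrix-rich wells of plate 2 ranged widely, with 2 to 18 macrophage genes. Well 95, at 658 macrophage UMIs and 18 genes, and well 33, at 152 and 16 genes, were under the limit of 0.5% in wells where the muscle list made up 27.3% and 29.5% of the UMIs.

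The very richest wells were not macrophage-rich. Macrophage-rich wells supplied 12.2% of the UMIs of the 7 genes in the matrix-rich wells of plate 1 and 27.6% in those of plate 2. Without well 152 the plate 2 share was 57.9%, and without the richest well of plate 1, well 148, the plate 1 share was 15.7%. The 4 richest wells of plate 1, wells 148, 79, 143 and 121, held 1209, 901, 570 and 551 UMIs of the 7 genes, and the macrophage list made up 0.04%, 0.09%, 0.02% and 0.14% of their UMIs. On plate 2 wells 152 and 91 held 1678 and 350 with 0.04% and 0.10%.

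The macrophage-rich wells with the most collagen transcripts were all mCherry+. Well 37 of plate 1 held 359 UMIs of the 7 genes with 267 macrophage UMIs, and well 41 held 287 with 75.2. On plate 2, well 123 held 247 with 373 macrophage UMIs, well 99 held 198 with 118 and well 128 held 190 with 180. In each of the 5, both kinds of transcript were well above single UMIs.

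By gate, the macrophage-rich wells among the matrix-rich ones were 3 mCherry+ and 0 mCherry- on plate 1, and 8 mCherry+ and 4 mCherry- on plate 2. The 4 mCherry- wells of plate 2 held 10.0 to 45.1 UMIs of the 7 genes. In well 335 these were mostly COL1A2 (14) and COL1A1 (10.0), and in wells 195 and 290 mostly SERPINH1 ENSDARG00000019949 (11 and 7.0), with COL1A1 at 0 in both.

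**Figure D3:**
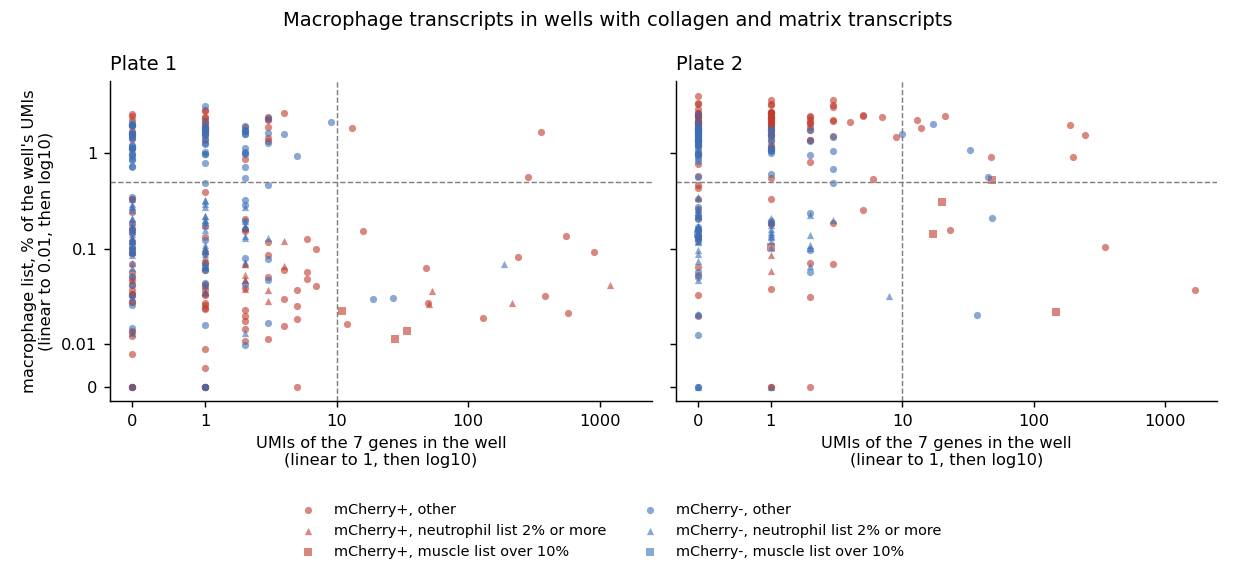
Macrophage-list share of each kept well's UMIs (vertical axis, percent, linear to 0.01 and then log10) against the well's UMIs of the 7 genes (horizontal axis, linear to 1 and then log10), for plates 1 and 2, with mCherry+ in red and mCherry- in blue, triangles for neutrophil-rich and squares for muscle-rich wells; dashed lines mark 10 UMIs and 0.5%. To the right of 10 UMIs, 3 of 23 wells lie above the line on plate 1 and 12 of 20 on plate 2.

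Other cell types were also found in the matrix-rich wells. On plate 1, 5 of 23 were neutrophil-rich and 3 muscle-rich, and on plate 2, 0 of 20 were neutrophil-rich and 4 muscle-rich. Of wells with no UMI of the 7 genes, 33 of 103 on plate 1 and 24 of 113 on plate 2 were neutrophil-rich. Of those same wells 0 and 1 were muscle-rich. These counts pool the gates. Among mCherry+ wells of plate 1, 4 of 20 matrix-rich wells and 2 of 40 without these genes were neutrophil-rich, and among mCherry- wells 1 of 3 and 31 of 63. On plate 2 these were 0 of 14 and 1 of 42 for mCherry+, and 0 of 6 and 23 of 71 for mCherry-. In well 148, the richest of plate 1, the neutrophil list made up 6.77% of the UMIs and a list of periderm or epithelium genes 4.74%. In well 121 erythroid genes made up 10.3%. Wells 152 of plate 2 and 72 of plate 1 carried epithelial genes at 2.99% and 2.59%. In well 130 of plate 2 endothelium genes made up 0.58%, the most among the matrix-rich wells of that plate.

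A list of fibroblast or mesenchyme genes, in which the small proteoglycan DCN (decorin) and the transcription factor twist1a are members, reached 0.41% of UMIs in well 143 of plate 1 and 0.44% in well 91 of plate 2. Its median over matrix-rich wells was 0.0308% on plate 1 and 0.0186% on plate 2. In wells with 0, 1 or 2 UMIs of the 7 genes, the median was 0 on both plates. The fin-fold list reached 4.64% in a matrix-rich well of plate 1. The part of these other cells in the gate difference was not tested.

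The matrix-rich wells did not all hold the same mixture of chains. Among 27 wells with at least 10 col1a1a UMIs, COL1A2 was under 10 UMIs per 100 of col1a1a in 9 and at 10.7 to 98.1 per 100 in the other 18. The limit of 10 per 100 was chosen after the values were seen. Both kinds came from both plates, but plate 2 had only 2 wells low in COL1A2, wells 128 and 33. Well 33 was muscle-rich and lay at the limit, with 10.0 col1a1a and 1 COL1A2 UMI (9.99 per 100). Of the 9 wells, 8 were mCherry+ and 1 mCherry-, and of the 18, 17 were mCherry+ and 1 mCherry-.

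In the 18 wells COL1A2 had a median of 67.9 per 100 of col1a1a, with 8 wells under 50 and 10 above. In some of them the type I chains stood close together. Well 121 of plate 1 held 137 col1a1a, 154 COL1A1, 131 COL1A2 and 69.6 COL5A1 UMIs, with 25.1 of DCN. Well 143 of plate 1 held 147, 159, 117 and 79.8 UMIs of the same 4 chains, in that order, and 13 of DCN. Well 123 of plate 2 held 53.3, 55.4, 52.3 and 49.3, with 9.01 of DCN. In others col1a1a led, as in well 37 of plate 1 with 206 col1a1a, 47.3 COL1A1 and 40.2 COL1A2 UMIs. DCN was seen in 12 of the 18 wells and in 5 of the 9 wells low in COL1A2, and twist1a in 7 and 0. Macrophage-rich but not muscle-rich were 4 and 2 wells. Well 134 of plate 2, among the 18, was both macrophage-rich and muscle-rich.

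The other kind held col1a1a with almost no alpha 2 chain. Well 79 of plate 1 held 757 col1a1a UMIs, against 5 COL1A1, 7.0 COL1A2 and 1 COL5A1. The mCherry- well 214 of plate 1 held 185 col1a1a UMIs and 3 of SPARC, with the other 5 genes at 0. Well 128 of plate 2, a macrophage-rich mCherry+ well, held 170 col1a1a, 6 COL1A1 and 2 COL1A2 UMIs.

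These wells also held the actinodins and1 and and2, which encode structural proteins of the fin-fold fibres called actinotrichia. The sum of and1 and and2 was 251 UMIs in well 79, 529 in well 72 and 280 in well 114, all mCherry+ on plate 1, and 71.3 in the mCherry- well 214. It reached at least 10 UMIs in 7 of the 9 wells low in COL1A2 and in 3 of the 18 other wells, with medians of 59.2 and 1 UMI. Well 152 of plate 2 had both, with 231 COL1A2 UMIs per 874 of col1a1a and 416 UMIs of and1 and and2. As the split was made on these wells, these numbers carry no test.

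**Figure D4:**
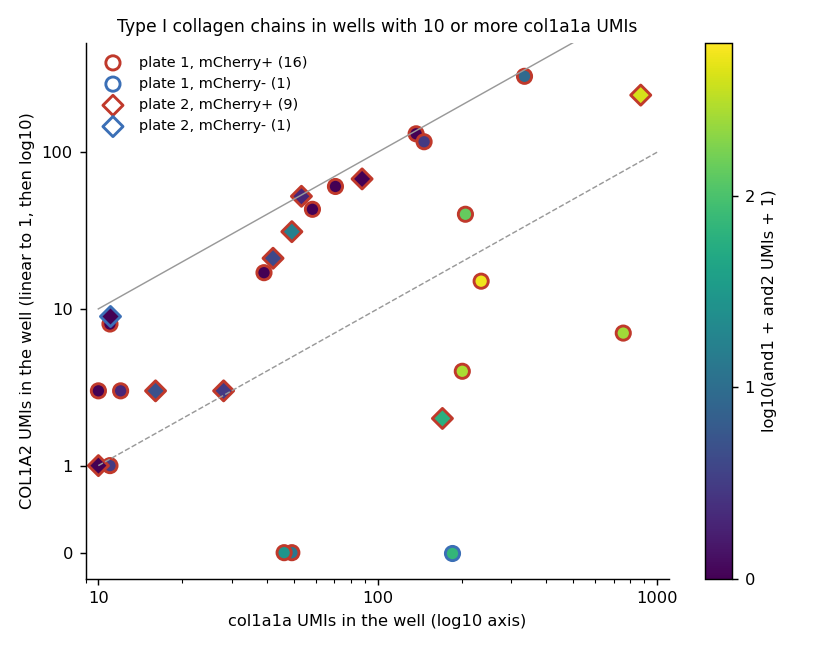
COL1A2 UMIs (vertical axis, linear to 1 and then log10) against col1a1a UMIs (horizontal axis, log10) in the 27 wells with at least 10 col1a1a UMIs; circles are plate 1, diamonds plate 2, red outlines mCherry+ and blue outlines mCherry-, and the fill shows log10 of and1 plus and2 UMIs plus 1. The solid line marks equal counts and the dashed line 10 COL1A2 per 100 col1a1a, below which 9 wells lie, 7 of them with at least 10 UMIs of and1 and and2.

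A further few wells held the chaperone with little collagen. Well 130 of plate 2 held 29.1 UMIs of SERPINH1 ENSDARG00000075954 and 13 of ENSDARG00000019949, against 1 col1a1a, 3 COL1A1 and 1 COL1A2. It was mCherry+ and macrophage-rich, with 362 macrophage UMIs among 39828. The same well held 233 UMIs of 7 endothelium genes, 417 of periderm or epithelium genes and 125 of progenitor genes. Which kind of cell carried the chaperone was not tested. That single well supplied 47.6% of the mCherry+ UMIs of ENSDARG00000075954 on its plate.

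Across kept wells of a plate, the genes followed each other to differing degrees. On the scale of log2(CPM + 50), the mean Pearson correlation over pairs of the 7 genes was 0.51 across 294 wells of plate 1 and 0.59 across 240 wells of plate 2. COL1A1 and COL1A2 were the closest pair on both plates, at 0.76 and 0.77. SERPINH1 ENSDARG00000075954 stood farthest from col1a1a, at 0.29 and 0.35. These are descriptions, since wells share a library and differ in depth, and most wells are at 0.

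Of 7053 genes with at least 30 UMIs on each plate, the 12 most like the mean of the 7 genes were taken by Pearson correlation. Those with a symbol were largely matrix genes. COL2A1, the chain of type II collagen found in cartilage and notochord sheath, came first, with correlations of 0.81 on plate 1 and 0.79 on plate 2. The others with a symbol were tnn, CEBPD, col16a1, COL5A2, CCN1, DCN, COL12A1 and CRTAP, at 0.60 to 0.79, of which COL5A2 is the partner chain of COL5A1 in type V collagen and CRTAP takes part in prolyl 3-hydroxylation of procollagen. The remaining 3 have no symbol. By Spearman correlation COL2A1 ranked 14, tnn 32, DCN 34, COL12A1 59 and col16a1 62, so the order rests partly on the few rich wells. CEBPD ranked 2, and the genes without a symbol ranked 1, 3 and 4.

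Below 10 UMIs of the 7 genes, col1a1a was about as frequent in macrophage-rich as in neutrophil-rich wells. It was seen in 39 of 86 macrophage-rich wells (45.3%, 34.6 to 56.5%) of plate 1, against 34 of 81 neutrophil-rich wells (42.0%, 31.1 to 53.5%). On plate 2 it was seen in 43 of 132 macrophage-rich wells (32.6%, 24.7 to 41.3%), against 15 of 44 neutrophil-rich wells (34.1%, 20.5 to 49.9%). Median depths were 10128 UMIs in these macrophage-rich wells, against 8535 in the neutrophil-rich ones, on plate 1 and 10177, against 8583, on plate 2. Neutrophils are not a known source of type I collagen. The intervals overlapped on both plates, so a higher share in macrophage-rich wells was not detectable at this depth. Where these UMIs came from was not tested.

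Shares of wells with any UMI of the 7 genes were also taken at equal depth. On plate 1, 103 mCherry+ wells (72.0%) and 88 mCherry- wells (58.3%) had at least 1 UMI of the 7 genes, and on plate 2, 81 mCherry+ wells (65.9%) and 46 mCherry- wells (39.3%). After each well was thinned to 2000 UMIs, the shares were 32.5% in mCherry+ and 22.1% in mCherry- wells of plate 1, with 20 and 11 wells left out as too shallow. They were 21.7% in mCherry+ and 16.8% in mCherry- wells of plate 2, with 17 and 16 left out. At least 3 UMIs remained in 15 of 123 mCherry+ wells (12.2%) and 2 of 140 mCherry- wells (1.43%) of plate 1. On plate 2 the gates lay closer, at 7 of 106 (6.60%) and 5 of 101 (4.95%). In neutrophil-rich wells of both gates, the thinned shares with at least 1 UMI were 23.2% of 82 wells on plate 1 and 12.2% of 41 on plate 2. Those wells are also part of the gate shares, and on plate 1 they include 5 matrix-rich wells. The median depths of all 86 and 44 neutrophil-rich wells, shallow ones included, were 8650 and 8583 UMIs.

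Summed over wells, col1a1a was the largest part of the 7 genes both in the wells below 10 UMIs and in the matrix-rich wells, but the shares were not equal. On plate 1 col1a1a made up 55.9% (50.4 to 61.4%) of the UMIs of the 7 genes in these wells, against 46.7% (45.4 to 48.1%) in the matrix-rich wells. COL1A2 made up 8.51% (5.73 to 12.1%), against 14.3% (13.4 to 15.3%). On plate 2 col1a1a made up 50.0% (42.8 to 57.2%), against 43.3% (41.6 to 45.0%). SERPINH1 ENSDARG00000075954 made up 3.04% (1.47 to 5.52%), against 0.649% (0.452 to 0.901%), on plate 1. On plate 2 it made up 6.06% (3.17 to 10.3%), against 1.75% (1.32 to 2.26%). Its shares below 10 UMIs rest on 10 and 12 UMIs. These intervals treat pooled UMIs as independent and leave out the spread between wells. Well 148 alone held 1209 of the 5393 UMIs of the matrix-rich wells of plate 1. Whether the mixtures differ was not tested.

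The wider set of matrix genes was examined with lists of collagens, collagen-modifying enzymes, proteoglycans, glycoproteins, laminins and matrix proteases, 135 genes beside the 7. Of 67 that could be tested, 14 were called higher and 3 lower in mCherry+ wells by edgeR, with backgrounds of 2.42% called higher and 2.32% lower over all genes. The median log2 fold of the 67 was 1.79, against 0.03 over all genes tested. The lists were chosen with earlier results of these data known.

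Those called higher were mostly structural. Among other fibrillar collagens 2 of 5 tested, COL2A1 and col11a1b, were called higher by edgeR, and all 5 folds were above 0. COL2A1 had a log2 fold of 2.72 (SE 0.43, adjusted p 0.00905). For col11a1b, a chain of type XI collagen, it was 3.40 (SE 0.68, adjusted p 0.0245). Among other collagens edgeR called 3 of 10 higher, including COL12A1 (3.49, SE 0.52, adjusted p 0.00661) and col18a1a (5.03, SE 0.68, adjusted p 0.00385). The col18a1a sums were 124 and 58 UMIs in mCherry+ wells of plates 1 and 2, against 1 and 2 in mCherry- wells.

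Glycoproteins and proteoglycans moved likewise. Of the UMIs of the glycoprotein list 80.8% lay in the matrix-rich wells, as did 79.45% of those of the other collagens. Of 15 glycoprotein genes tested, all with a fold above 0, 6 were called higher: and1, and2, and3, CCN1, CCN2 and TNC. The actinodin and3 had 609 and 275 UMIs in mCherry+ wells of plates 1 and 2, against 12 and 12 in mCherry- wells, a log2 fold of 4.33 (SE 0.50, adjusted p 0.00182). CCN1 and CCN2, secreted matricellular proteins, each had 1 UMI in either mCherry- sum, against 123 and 34 and against 184 and 17 in the mCherry+ sums. Of 4 proteoglycans tested, edgeR called 2 higher. FMOD (fibromodulin) was at a log2 fold of 3.34 (SE 0.59, adjusted p 0.0142) and DCN at 2.71 (SE 0.53, adjusted p 0.0230). Without muscle-rich wells 0 of 5 proteoglycans were called by edgeR, though all 5 had an unadjusted p under 0.05 and DESeq2 called 2, and col11a1b and TNC were no longer called. Without the plate as a replicate block 0 of 4 proteoglycans and 0 of 5 other fibrillar collagens were called, with 4 of each at an unadjusted p under 0.05.

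Genes for the folding and modification of collagen showed few calls. Of 16 genes tested, such as prolyl and lysyl hydroxylases, 0 were called by edgeR or DESeq2, 6 had an unadjusted p under 0.05 in edgeR and 3 in DESeq2, and the median log2 fold was 0.48. After thinning 1 of the 5 that could be tested was called, SEC24D, a coat protein of secretory vesicles, lower in mCherry+ wells at -1.60 (adjusted p 0.0477 by edgeR). Of their UMIs 25.6% lay in the matrix-rich wells, where the other fibrillar collagens had 84.4% and the proteoglycans 88.4%. The matrix-rich wells include muscle-rich wells of 76221 to 214558 UMIs and held a large part of all UMIs. The 25.6% is therefore not read as a low share. Of 15 genes of collagen processing and cross-linking, 2 had enough UMIs to be tested, and neither was called by edgeR or DESeq2 nor had an unadjusted p under 0.05.

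Genes of matrix turnover were divided. Of 7 tested, 4 had a fold above 0 and 3 below, with a median log2 fold of 0.27. Called were the 3 lower ones, while 3 of the 6 with an unadjusted p under 0.05 were higher in mCherry+ wells. The log2 fold was -3.86 (SE 0.31, adjusted p 0.000219) for the collagenase gene mmp13a, -3.89 (SE 0.33, adjusted p 0.000329) for the gelatinase gene MMP9 and -2.40 (SE 0.44, adjusted p 0.0169) for TIMP2, an inhibitor of such proteases. After thinning all 4 that could be tested were called, these 3 and CTSK (cathepsin K, a collagen-degrading protease), which was higher at 1.41 (adjusted p 0.0300 by edgeR). The mmp13a sums were 445 and 165 UMIs in mCherry+ wells of plates 1 and 2, against 3391 and 1597 in mCherry- wells. mmp13a is also on the neutrophil list, of which 5 of 9 genes tested were called lower, with a median log2 fold of -2.04 over the 9. Without muscle-rich wells mmp13a and MMP9 were still called lower and 9 of 69 matrix genes tested were called higher. The backgrounds over all genes were 0.337% called higher and 0.453% called lower.

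Marker lists of several tissues moved in the same direction as the collagens. Called higher in mCherry+ wells were 14 of 15 muscle genes (median log2 fold 3.75), 3 of 6 basal epidermis genes (3.38), 4 of 11 periderm or epithelium genes (1.89) and 3 of 4 fin-fold genes (3.03). All 3 fin-fold genes, and1 and and2 among them, were already counted among the 14 matrix genes called higher. That list is therefore not separate from the matrix lists. Of the 20 macrophage genes tested, 0 were called by edgeR or DESeq2, with 3 at an unadjusted p under 0.05 in edgeR and 2 in DESeq2, and their median was -0.14. After thinning edgeR called 2 of 16, both higher in mCherry+ wells: marco at 1.57 (adjusted p 0.00956) and the iron exporter SLC40A1 at 1.75 (adjusted p 0.00335). SEC24D, CTSK, marco and SLC40A1 are named here after their values were seen. Without muscle-rich wells 0 of 14 muscle genes were called higher. As those wells were picked by this same muscle list, fewer muscle calls were bound to follow. In that fit 1 basal epidermis, 1 epithelium and 2 fin-fold genes were called higher. The 2 fin-fold genes were again and1 and and2. Their part in the difference of the 7 genes was not tested.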

How the data were processed

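Single EGFP+ cells were sequenced by SORT-seq on 2 plates of 384 wells. The deposited tables hold expected counts per gene and well: the authors corrected the number of distinct UMIs for tag collisions, so that values need not be whole, and did not normalize them. Their processing notes name BWA, Seurat and GRCz11, with no role given. Spike-ins (1.13% of all values) were set aside, and 0 value columns were left unused. Gene names came from an Ensembl name table, which named 17425 of 22342 genes. The genes, marker lists and matrix lists were chosen with earlier results of these data known, and the limits of 10 UMIs, 0.5% and 2% after the data had been seen.

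UMIs of kept wells were summed by gate and plate and rounded to whole numbers, which gave 983833 to 1952890 UMIs per sum. edgeR 4.0.16 in R 4.3.3 (filterByExpr, TMM, quasi-likelihood F test, plate as block, Benjamini-Hochberg over all genes tested, threshold 0.05) was tested on simulated data first. That simulation gave all genes the same dispersion and did not imitate sums in which 1 well dominates. With 1 residual degree of freedom per gene, the variance was shared across genes (8.28 prior degrees of freedom). The plates pair the gates because both gates were sorted onto each plate. Fold changes of single plates are TMM-scaled log2 CPM differences without a test. Each SE of an edgeR fold is the absolute log2 fold divided by the square root of its F statistic. Shares carry exact 95% Clopper-Pearson intervals. Genes named beside the 7 are those of the matrix lists past the threshold, at most 15 by UMIs, and the 12 with the highest value of the lower of the plates' correlations with the mean of the 7; col16a1 was named by the second rule. Alternatives were DESeq2 1.42.0, no filter, no block, other well minimums, thinning (seed 11) and wells left out.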

Additional observations from a re-analysis of the deposited data

How the results depend on the processing

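The log2 folds of the 7 genes kept their direction in all 72 pairs of a gene and an alternative setting, and ranged from 0.25 to 5.26. Single plates of the full set are included. As the genes were picked from this contrast, that is a description. The number of genes called over all kept wells was 470, and it was 1102 without a filter on low counts, 300 without each sum's richest well, 280 of 3108 after thinning, 75 without muscle-rich wells and 103 without matrix-rich wells. Of the 7 genes, DESeq2 called 6 and thinning 6 of the 6 tested. Without muscle-rich wells, the 75 became 755 without a filter, 216 with DESeq2, 25 at a minimum of 2000 UMIs, 233 with no well minimum, 33 without the richest wells and 268 after thinning. Without the plate as a replicate block 57 genes were called by edgeR, 1 of the 7 among them (COL1A1). Without muscle-rich wells 29 were called that way, none of the 7 among them, with all 7 folds above 0. The cause was not tested. Leaving out a plate leaves no residual degree of freedom, so it gave folds only.

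Without thinning, shares of wells with at least 3 UMIs of the 7 genes were 32.9% in mCherry+ and 9.27% in mCherry- wells of plate 1. On plate 2 they were 23.6% and 10.3%. After thinning, 32.5% of mCherry+ and 22.1% of mCherry- wells of plate 1 had at least 1 UMI, as did 21.7% of mCherry+ and 16.8% of mCherry- wells of plate 2. Macrophage-rich shares of matrix-rich wells were 8.70% to 26.2% on plate 1 and 40.0% to 66.7% on plate 2 over 7 alternatives each. The mean correlation between the 7 genes was 0.33 and 0.39 by Spearman. Wells are few and not independent, the gate is fixed to 1 side of each plate, and 4 sums bound every test. Depth limits the scarce SERPINH1 row ENSDARG00000075954, which thinning left untested.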
